A study of Mus musculus with 4 samples.

Results

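Genes that bring lipid into cells, store it and send it out again were measured in ChAT-eGFP+ cells of mouse inguinal white adipose tissue (IWAT), at thermoneutrality and after acute cold. The genes were 10 of the 31053 in the deposited matrices and were matched by symbol: Lpl, Cd36, Fabp4, Fabp5, Lipa, Plin2, Apoe, Abca1, Abcg1 and Nr1h3. The cells came from male ChATBAC-eGFP mice, which carry a transgene that places eGFP under control of the choline acetyltransferase locus and were 5 weeks old when housing at 30 °C began. Every mouse spent 3 weeks at 30 °C. The 30 °C group then stayed there for a further 4 h, and the 4 °C group was moved to 4 °C for 4 h after 24 h at room temperature, a step that only the cold group had, so its effect and that of cold cannot be told apart. There were 2 libraries per group, each from 4 pooled mice. Live single eGFP+ cells of the stromal vascular fraction were sorted before 10x Genomics 3′ single-cell RNA-sequencing, so floating adipocytes had been removed, and eGFP marks cells in which the transgene is active, whatever their type.

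As background, lipoprotein lipase (Lpl) hydrolyses the triglyceride of lipoproteins, Cd36 carries fatty acids and modified lipoproteins across the plasma membrane, and Fabp4 and Fabp5 are fatty acid carriers of the cytosol. Lysosomal acid lipase (Lipa) frees cholesterol and fatty acids from lipid taken up by endocytosis, and Plin2 coats the lipid droplets in which the surplus is kept. Cholesterol leaves the macrophage through the exporters Abca1 and Abcg1, and Apoe is a protein carried by lipoproteins. Nr1h3 encodes LXR alpha, the sterol-sensing nuclear receptor that switches on the exporters and Apoe. Adipose tissue macrophages are known for taking up lipid that adipocytes release.

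All 10 genes are protein coding, and on mm10 (GENCODE annotation M21) they lie at chr8:68880491-68907448 (Lpl), chr5:17781690-17888801 (Cd36), chr3:10204088-10208576 (Fabp4), chr3:10012548-10016607 (Fabp5), chr19:34492318-34527474 (Lipa), chr4:86648386-86670060 (Plin2), chr7:19696109-19699188 (Apoe), chr4:53030787-53159895 (Abca1), chr17:31057675-31117988 (Abcg1) and chr2:91184061-91202834 (Nr1h3). RefSeq promoter sequences on GRCm38.p6, from 250 bases before the transcript start to 50 bases after it, matched 6 of the 10 (Cd36, Lipa, Plin2, Apoe, Abca1 and Nr1h3). The promoters of Plin2 (chr4:86670010-86670309, minus strand) and Lipa (chr19:34527425-34527724, minus strand) are shown because their transcripts moved in opposite directions in the same macrophages, as given below. Capitals mark the hexamer AGGTCA, the core element bound by nuclear receptors such as LXR and PPAR, which appears as TGACCT where it lies on the other strand, and the E-box CACGTG, which reads the same on both strands.
Plin2: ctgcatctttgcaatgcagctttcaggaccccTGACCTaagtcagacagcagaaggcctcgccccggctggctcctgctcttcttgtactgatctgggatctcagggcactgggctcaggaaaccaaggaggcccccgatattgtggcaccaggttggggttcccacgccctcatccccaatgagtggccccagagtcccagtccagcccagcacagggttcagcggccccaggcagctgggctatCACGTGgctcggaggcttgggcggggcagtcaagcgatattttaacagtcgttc
Lipa: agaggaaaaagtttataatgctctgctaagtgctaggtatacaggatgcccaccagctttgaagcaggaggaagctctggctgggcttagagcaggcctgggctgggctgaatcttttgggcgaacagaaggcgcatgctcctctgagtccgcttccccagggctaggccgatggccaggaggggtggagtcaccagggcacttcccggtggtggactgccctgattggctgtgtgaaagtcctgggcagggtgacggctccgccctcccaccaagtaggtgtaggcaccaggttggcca
In the Plin2 promoter the hexamer began 218 bases before the transcript start and the E-box began 4 bases before it. Of all 32851 promoters in the table, 16.3% held the hexamer and 7.15% held the E-box. The hexamer also occurred in the Cd36 promoter and the E-box in the Abca1 promoter, and neither set of letters was present in the windows of Lipa, Apoe and Nr1h3, both strands searched.

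After filtering, 5190 and 5388 cells were kept at 30 °C and 5326 and 5345 at 4 °C, from libraries of 76058112 to 84468931 deposited UMIs, and any 2 libraries shared 10 to 18 cell barcodes. Cells were grouped by marker UMIs, and none of the 10 genes was used in a gate. Macrophages were split into those with Folr2 and neither Itgax nor Trem2 (107 and 120 cells at 30 °C, 299 and 93 at 4 °C) and those with Itgax or Trem2 and no Folr2 (12 and 15 cells, then 44 and 21). The 7 resident macrophage genes summed to 5492 to 7520 CPM (UMIs of a gene per 1000000 UMIs of that cell group in that library) in the first group and 363 to 856 in the second, and all 8 genes of the lipid-associated macrophage list were higher in the second. Both macrophage groups thus carried transcripts of their own list. In the second group the 9 dendritic genes summed to 37.5 to 75.4 CPM at 30 °C and to 40.1 to 361 at 4 °C. Fscn1, one of them, was at 0 and 10.8 at 30 °C and at 10.9 and 101 at 4 °C. The 4 monocyte genes summed there to 150 to 668 at 30 °C and to 602 to 663 at 4 °C. The part of these transcripts in the levels of the 10 genes was not tested. The 6 stromal genes summed to 40060 to 53640 CPM in the stromal cells and the 9 dendritic genes to 4196 to 5779 CPM in the dendritic cells, each a part of its own gate. Differences are log2 fold changes from edgeR (quasi-likelihood, adjusted over all genes tested, threshold 0.05), with their standard error (SE). The SE is the size of the log2 fold change divided by the square root of the F statistic of the test. There were 2 libraries per group, and this test borrows information on spread from all genes tested. The SE is thus not the spread of that gene between 2 pools of mice alone.

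**Figure D1:**
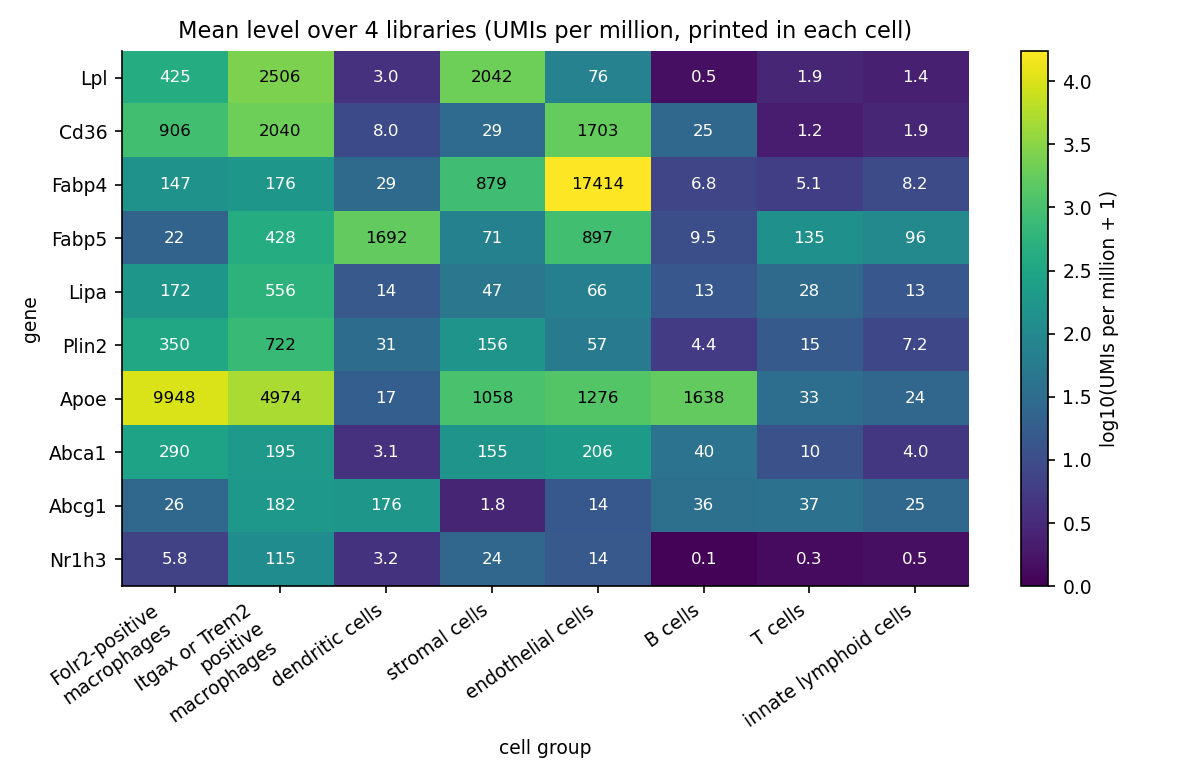
Mean level of each gene (rows) in each cell group (columns) over 4 libraries, in CPM, with color on a log10 scale. Most of the 10 genes were highest in a macrophage group, Fabp4 in endothelial cells and Fabp5 in dendritic cells.

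Across cell groups, the macrophages held the highest mean level of 8 of the 10 genes. Macrophages with Folr2 together with Itgax or Trem2 (44 cells at 30 °C and 89 at 4 °C), and those with none of these, were not ranked. Those with both kinds averaged 2270 CPM for Lpl and 505 for Lipa. For Cd36 (2162) and Plin2 (1019) they were above every ranked group. Lpl averaged 2506 CPM in Itgax or Trem2 positive macrophages (1739 to 3473 over 4 libraries) and 2042 in stromal cells (852 to 3665), ranges that overlapped, then 425 in Folr2-positive macrophages and 75.9 in endothelial cells. Lymphoid cells held almost none, with 0.518 in B cells and 1.87 in T cells. Cd36 followed with 2040 in Itgax or Trem2 positive macrophages, 1703 in endothelial cells and 906 in Folr2-positive macrophages. The first pair overlapped and the last did not. Among the ranked groups, the lysosomal and droplet genes were also highest in Itgax or Trem2 positive macrophages, Lipa at 556 and Plin2 at 722. They were at 172 and 350 in Folr2-positive macrophages. Lipa did not overlap between these groups, while Plin2 did.

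Apoe stood apart from this order. It was highest in Folr2-positive macrophages (8487 to 12040.1), then in Itgax or Trem2 positive macrophages (3638 to 6209), and next in B cells (1285 to 1921), which overlapped endothelial and stromal cells. T cells of the same libraries held 20.8 to 45.3. Abca1 was likewise highest in Folr2-positive macrophages, at 290.1 (244 to 372). This range overlapped that of endothelial cells (206) but not that of Itgax or Trem2 positive macrophages (195, from 135 to 237). Abcg1 was at 182 in Itgax or Trem2 positive macrophages and 176 in dendritic cells, which overlapped, and at 25.8 in Folr2-positive macrophages, below the 37.0 of T cells and the 36.0 of B cells and overlapping both. Nr1h3 averaged 115 in Itgax or Trem2 positive macrophages and 23.9 in stromal cells, with no overlap, and was under 15 in every other ranked group. In macrophages with both kinds of marker, which were not ranked, it averaged 52.5.

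The fatty acid carriers differed from each other. Fabp4 averaged 17414 in endothelial cells, far above stromal cells (879, from 6.50 to 2987 over libraries) and the macrophage groups (176 and 147). Fabp5 was highest in dendritic cells at 1692, followed by endothelial cells (897) and Itgax or Trem2 positive macrophages (428). The endothelial range overlapped that of dendritic cells and that of these macrophages. T cells held 135, below the range of these macrophages, and Folr2-positive macrophages held 21.8.

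The first question the design poses is what cold did in Folr2-positive macrophages, the larger macrophage group. Lpl rose 7.17-fold and Lipa rose 2.23-fold, while Plin2 fell 3.51-fold, Fabp4 fell 2.36-fold and Apoe fell 1.31-fold. Fabp5 was called at 3.64-fold higher, which rested on 1 cold library. Of the 10 genes, 9 passed the filter on low counts and 6 of these were called, 3 in each direction, where 17.5% of all 8289 genes tested were called (9.02% rose and 8.44% fell). The median log2 fold change was 0.14 over the 9 genes and -0.0036 over all genes tested.

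Lpl was at 82.0 and 121 CPM in the 30 °C libraries and at 808 and 688 in the 4 °C libraries. The lowest cold library was thus well above the highest 30 °C library, and the log2 fold change was 2.84 (SE 0.16, adjusted p = 1.13e-08). It was 1.84 (adjusted p = 1.23e-07) when Folr2-positive cells were taken whatever their Itgax and Trem2. No single cell carried it, as the cell with the most Lpl UMIs held 4.82% to 8.37% of them in each library. The median cell went from 0 Lpl UMIs in both 30 °C libraries to 3 in both 4 °C libraries. Lipa, which acts after uptake, was at 80.05 and 127 at 30 °C and at 234 and 246 at 4 °C, again without overlap (log2 fold change 1.16, SE 0.17, adjusted p = 0.000163).

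Plin2 went the other way, from 608 and 472 at 30 °C to 153 and 166 at 4 °C. Its log2 fold change was -1.81 (SE 0.14, adjusted p = 2.47e-07), and the median cell went from 5 and 3 Plin2 UMIs to 1 in both cold libraries. Fabp4 was at 207 in both 30 °C libraries and at 97.4 and 75.9 in the cold (log2 fold change -1.24, SE 0.14, adjusted p = 1.65e-05). Lpl and Lipa were therefore higher, and Plin2 and Fabp4 lower, in both cold libraries than in both libraries at 30 °C.

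Apoe, the most abundant of the 10 transcripts in these cells, was at 12040.1 and 10254 at 30 °C and at 9012 and 8487 at 4 °C (log2 fold change -0.39, SE 0.11, adjusted p = 0.0183). This call was lost without the first 30 °C library (-0.29, adjusted p = 0.0779). Fabp5 rested on 1 library: it was at 7.91 and 13.05 at 30 °C, at 53.1 in the first cold library and at 13.09 in the second. Its log2 fold change of 1.86 (SE 0.49, adjusted p = 0.0156) came down to 0.27 (adjusted p = 0.884) without the first cold library, and DESeq2 gave an adjusted p of 0.197.

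The remaining genes did not pass the test. Cd36 was at 875 and 821 at 30 °C and at 961 and 966 at 4 °C, so that its libraries did not overlap while its log2 fold change was only 0.14 (SE 0.10, adjusted p = 0.386). Abca1 overlapped between groups, with 372 and 244 against 252 and 293. Abcg1 was at 20.7 and 16.8 and then at 30.4 and 35.3 (log2 fold change 0.73, SE 0.28, adjusted p = 0.0952), with 18 to 75 UMIs per library. Nr1h3 had 3 to 26 UMIs per library and was not tested.

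**Figure D2:**
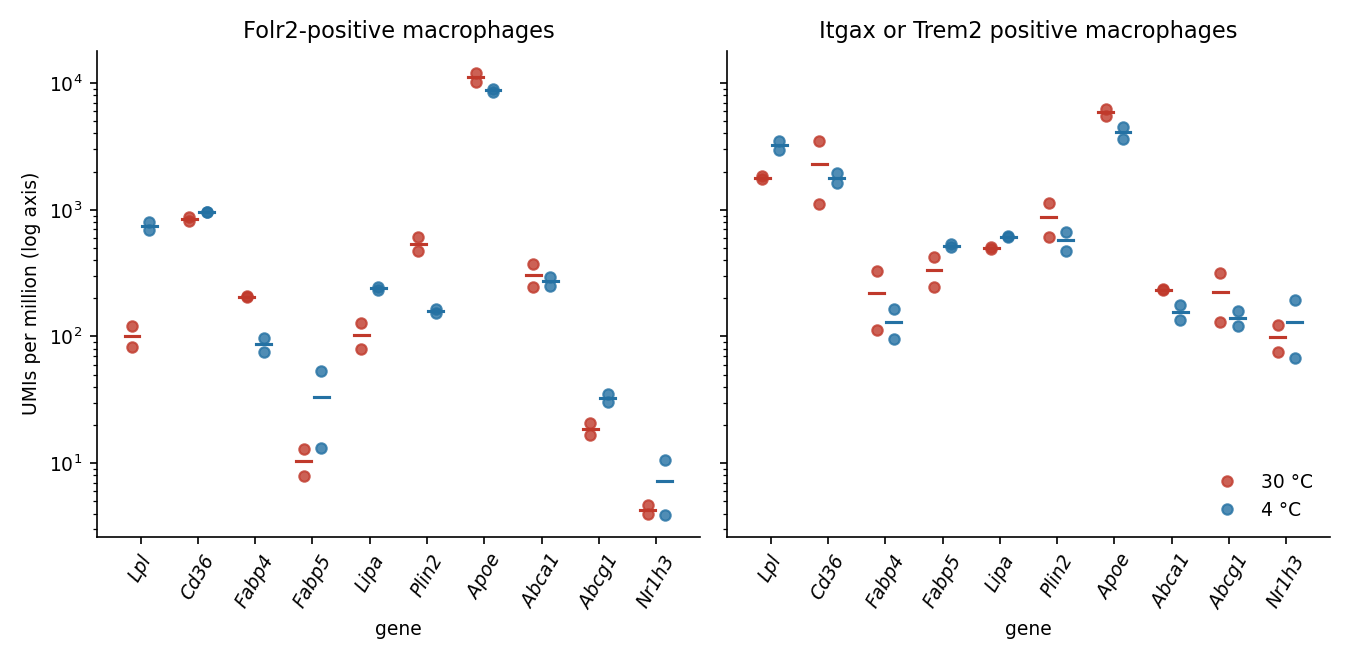
CPM (log axis) of the 10 genes in each library of the macrophage groups, with 1 point per library and a line at the mean of each temperature. In Folr2-positive macrophages Lpl and Lipa are higher and Plin2, Fabp4 and Apoe lower in both 4 °C libraries. In Itgax or Trem2 positive macrophages 0 of the 10 genes were called, as were 0 of all 3301 genes tested.

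Shares of cells gave the same directions once depth was made equal. With every cell reduced to 3000 UMIs (7 to 18 shallower Folr2-positive cells left out per library), Lpl was seen in 18.0% and 26.1% of Folr2-positive macrophages at 30 °C and in 70.1% and 69.1% at 4 °C. Lipa was seen in 25.0% and 30.6%, then in 47.0% and 48.1%. Plin2 was seen in 74.0% and 64.9%, then in 32.4% and 30.9%, and Fabp4 in 44.0% and 47.7%, then in 19.6% and 19.8%. In T cells, a type that should lack Lpl, at most 0.609% of cells had an Lpl UMI at this depth, and Lipa was in 7.64% to 9.41%, Plin2 in 3.27% to 4.97% and Fabp4 in 0.996% to 2.22% (median depth before the reduction 6156 to 6856 UMIs). Without the reduction, the Lpl shares in Folr2-positive macrophages were 43.9% and 48.3% and then 85.0% and 79.6%, with median depths of 7844 to 9182 UMIs. None of the 4 genes overlapped between temperatures, and the exact permutation test over libraries gave its smallest possible value for 2 against 2, p = 0.333 (two-sided). Of 50 pairs of gene and cell group compared in this way after the reduction, 26 gave that value. The share over all genes was not counted.

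**Figure D3:**
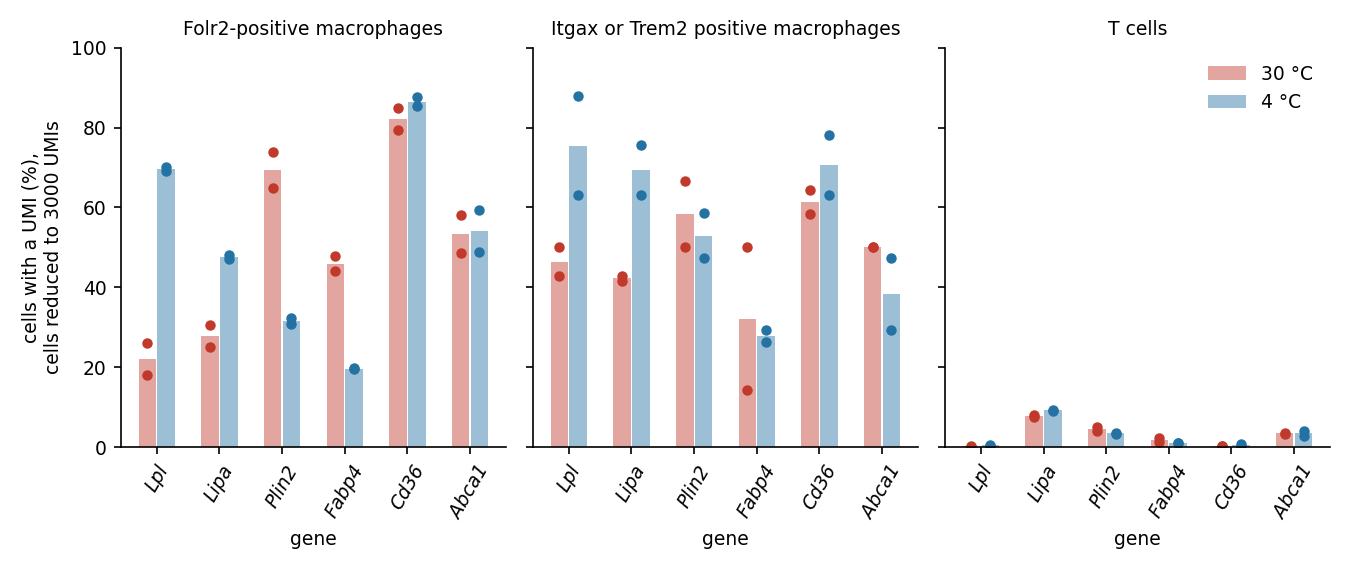
Percentage of cells with at least 1 UMI of each gene after all cells were reduced to 3000 UMIs, with 1 point per library and bars at the mean of each temperature. Folr2-positive macrophages show Lpl in 18.0% to 26.1% of cells at 30 °C and in 69.1% to 70.1% at 4 °C, while in T cells Lpl is in at most 0.609%.

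Other transcripts moved in the same cells. The 4 monocyte genes summed to 45.5 to 62.4 CPM at 30 °C and to 609.7 to 612.5 at 4 °C. Ccr2, the chemokine receptor of monocytes, made up 21.7 and 44.7 of this and then 600.0 and 595. Plac8, also on this list, was lower at 4 °C, at 22.7 and 17.7 and then at 8.92 and 14.4. Of the 7 resident macrophage genes 3 fell, Lyve1 (log2 fold change -2.90), Cd163 (-1.12) and Fcna (-1.12), and 1 rose, Cd209f (0.92). The other 3 did not pass the test, among them Mrc1, at 2467 and 2286 CPM and then at 2171 and 2214. The 9 dendritic genes summed to 54.05 to 62.3 CPM at 30 °C and to 106 to 107 at 4 °C, and 2 of 3 tested rose, Cd209a (0.82) and Fscn1, which had 0 and 3 UMIs at 30 °C and 37 and 15 at 4 °C. Cells with a Ccr2 UMI made up 11.2% and 19.2% of this group at 30 °C and 37.8% and 44.1% at 4 °C. In them Lpl was at 44.1 and 171 at 30 °C and at 791 and 895 at 4 °C, and Plin2 at 600 and 407 against 139 and 140. In Folr2-positive cells without a Ccr2 UMI, Lpl was at 86.8 and 107 at 30 °C and at 820 and 508 at 4 °C, and Plin2 at 609 and 490 against 163 and 189. These differences were thus present in either set. At 4 °C the cells without a Ccr2 UMI had fewer UMIs (medians 6901 and 6746.5 against 8996 and 9271), so some may express Ccr2 unseen. The 7 adipocyte genes summed to 80.05 to 81.1 at 30 °C and to 43.8 to 56.3 at 4 °C, most of it Car3 (33.3 to 58.7), and Adipoq, which defines adipocytes, had 0 to 8 UMIs per library. The 7 endothelial genes, from cells where Fabp4 is abundant, summed to 7.91 to 13.05 at 30 °C and to 5.23 to 6.09 at 4 °C. The part of these transcripts in the results was not tested. The split by Ccr2 was chosen after the data had been seen.

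Further lists of lipid genes placed the 10 in context. In the list for lipid droplet storage and breakdown, 5 of 8 genes tested fell and none rose, with a median log2 fold change of -1.25. They were the droplet protein Cidec (-2.51, also on the adipocyte list), the triglyceride lipase Pnpla2 (-2.29), the lipase inhibitor Hilpda (-1.54), the acyltransferase Dgat1 (-1.37) and the hormone-sensitive lipase Lipe (-1.14), so that the list holds enzymes that build triglyceride and enzymes that break it down. Counts were low for Cidec (14 and 12 UMIs at 30 °C, 5 and 2 at 4 °C) and Hilpda (29 and 13, then 18 and 5). Of 10 uptake and activation genes tested 2 rose, among them the lipoprotein receptor Scarb1 (1.04), and 2 fell, Angptl4, a secreted inhibitor of lipoprotein lipase (-1.35), and the scavenger receptor Msr1 (-0.59). In the list for lysosomal lipid handling, which does not hold Lipa, 11 of 12 genes did not pass the test, and the median log2 fold change was 0.02.

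Sterol synthesis showed Idi1 (2.23) and Cyp51 (1.51) higher among 6 genes tested. Both had low counts, Idi1 with 2 and 5 UMIs at 30 °C and 39 and 14 at 4 °C, Cyp51 with 5 and 4, then 30 and 11. None of 11 partners of LXR, PPAR and cholesterol efflux was called, with 0 also at an unadjusted p under 0.05. In the lipid-associated macrophage list 2 of 5 genes tested were called and both fell, Lgals3 (-0.79) and Cd63 (-0.49).

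Itgax or Trem2 positive macrophages were the smaller group and held high Lpl at both temperatures. Lpl was at 1834 and 1739 CPM at 30 °C and at 3473 and 2979 at 4 °C, which did not overlap, but with a log2 fold change of 0.80 (SE 0.24) the adjusted p was 0.395. Of the 10 genes tested, 0 were called, as were 0 of all 3301 genes (0%), and at an unadjusted p under 0.05 edgeR gave 1 of the 10 (Lpl) and 293 of all genes. DESeq2 also called none of the 10. Plin2 was at 1126 and 614 at 30 °C and at 673 and 474 at 4 °C, and overlapped. Lipa was at 507 and 490.1 and then at 620 and 608, without overlap (log2 fold change 0.25, SE 0.24, adjusted p = 0.806). Fabp5 was likewise without overlap and higher at 4 °C, and Apoe and Abca1 lower, none past the threshold. At 3000 UMIs per cell Lpl was seen in 6 of 12 and 6 of 14 of these cells at 30 °C and in 36 of 41 and 12 of 19 at 4 °C.

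These sums rest on few cells. At 30 °C the cell with the most Lpl UMIs held 34.5% and 43.7% of them, and in the cold 12.7% and 24.5%. Without the first or the second 30 °C library, Lpl was called (log2 fold change 0.80, adjusted p = 0.00979, and 0.84, adjusted p = 0.00667), in fits where the lone 30 °C library was assumed to vary like the cold ones. Without the first or the second cold library it was not called (0.69, adjusted p = 0.995, and 0.94, adjusted p = 0.893). When all gated macrophages were summed, those with both or neither kind of marker included, the 6 genes called were Lpl (1.73), Lipa (0.90), Fabp5 (0.71), Plin2 (-1.09), Fabp4 (-1.05) and Apoe (-0.38), where 16.9% of all genes were called.

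**Figure D4:**
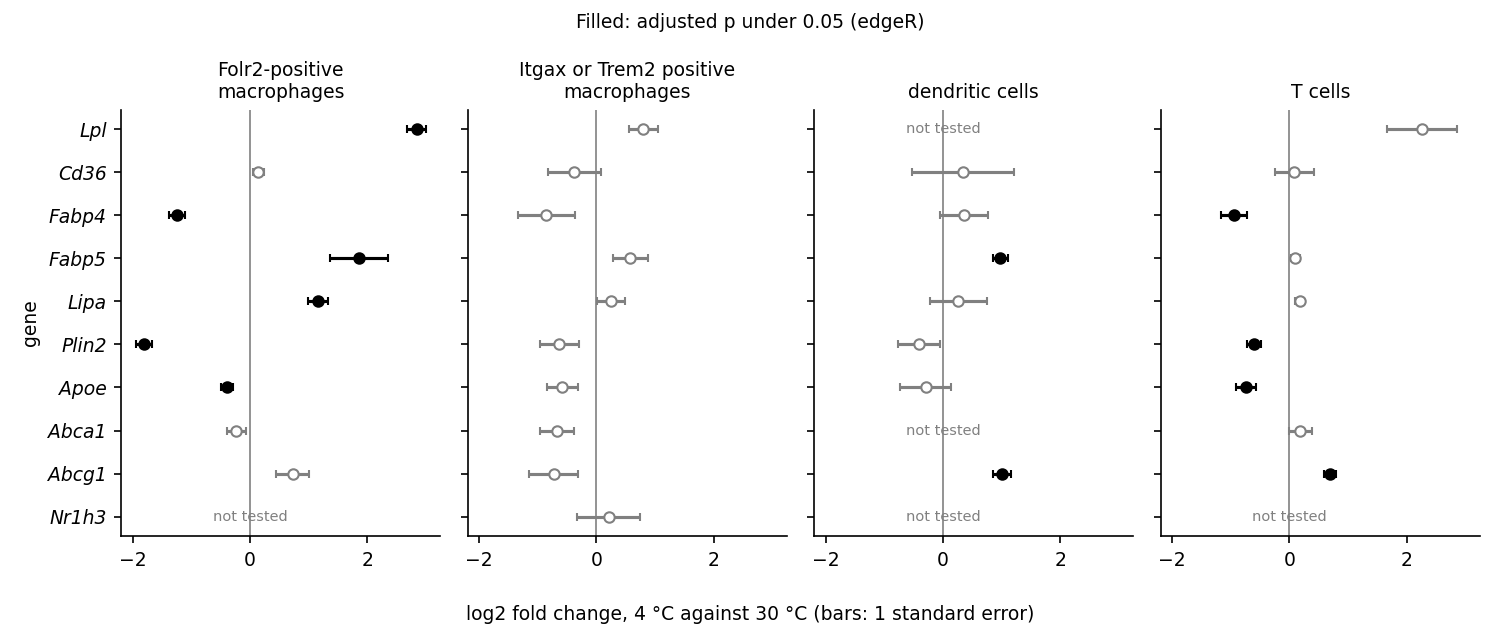
Log2 fold changes of the 10 genes, 4 °C against 30 °C, in 4 cell groups, with bars of 1 standard error and filled points for an adjusted p under 0.05. 6 points are filled in Folr2-positive macrophages, 4 in T cells, 2 in dendritic cells and none in Itgax or Trem2 positive macrophages.

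The macrophage groups were then compared with each other within libraries. Of the 10 genes, 8 were called, 7 higher in Itgax or Trem2 positive macrophages and 1 lower, where 16.4% of all 7849 genes were called (8.59% higher and 7.85% lower). The median log2 difference was 1.62 over the 10 genes and -0.03 over all genes tested. Fabp5 was 21.6-fold higher (log2 4.43, SE 0.32), Nr1h3 16.3-fold (4.02, SE 0.38), Lpl 8.99-fold (3.17, SE 0.32) and Abcg1 6.87-fold (2.78, SE 0.28). Lipa was 3.73-fold higher, Plin2 2.54-fold and Cd36 2.24-fold, and Apoe was 1.87-fold lower (log2 -0.90, SE 0.11). The largest of these 8 adjusted p-values was 0.00117 (Plin2), and all 8 calls held under each of the 13 alternatives. The sizes moved more. When Folr2-positive cells were taken whatever their Itgax and Trem2, the log2 difference was 2.50 for Fabp5, 2.62 for Nr1h3, 1.78 for Lpl, 1.99 for Abcg1, 1.27 for Lipa and 0.66 for Plin2. With stricter gates it was 2.40 for Lpl and 3.14 for Nr1h3, and without the first cold library it was 5.15 for Fabp5 and 4.91 for Nr1h3. Fabp4 (log2 0.34, adjusted p = 0.416) and Abca1 (-0.49, adjusted p = 0.0890) did not pass, and Abca1 passed without the cell with the most UMIs of it in each group (-0.78, adjusted p = 0.00896).

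In the lists of further lipid genes none was lower in Itgax or Trem2 positive macrophages. Of 12 lysosomal genes tested 5 were higher, among them Gm2a (1.75) and Psap (1.69), with a median of 0.34 over the list. Of 8 sterol synthesis genes tested 3 were higher, among them Cyp51 (1.99) and Insig1 (1.38). In the droplet list Hilpda (1.93), the cholesterol-esterifying enzyme Soat1 (1.73) and Plin3 (0.83) were higher, of 7 tested. Pparg (1.49) and Lpcat3 (1.37), which remodels membrane phospholipid, were higher among 11 partners of LXR, PPAR and efflux. Of 11 uptake genes tested 2 were higher, among them the lipoprotein receptor Lrp1 (1.11).

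Whether cold acted differently in the macrophage groups was tested as an interaction. Lpl was called, with a cold response 4.02-fold smaller in Itgax or Trem2 positive macrophages (log2 -2.01, SE 0.29, adjusted p = 0.0245), where 0.0637% of all genes (5 of 7849) were called. Lpl in Folr2-positive macrophages after cold (808 and 688) was below Lpl in the other group before cold (1834 and 1739). The call was kept in 6 of 12 alternatives. It was lost without the first cold library (log2 -2.03, adjusted p = 0.498) and without the second (-1.98, adjusted p = 0.666), where the difference was about as large and 1 cold library was left. The call was also lost with at least 2 UMIs of the gating genes (-2.18), without the cell with the most UMIs in each group (-1.59), with stricter gates (-0.89) and when Folr2-positive cells were taken whatever their Itgax and Trem2 (-0.99). Plin2 (1.25, SE 0.32) and Abcg1 (-1.41, SE 0.42) had unadjusted p-values of 0.00180 and 0.00476 and did not pass adjustment.

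In dendritic cells Fabp5 and Abcg1 rose in the cold. Fabp5 was at 1252 and 977 CPM at 30 °C and at 2239 and 2300.4 at 4 °C (log2 fold change 0.98, SE 0.12, adjusted p = 0.00568). Abcg1 was at 112 and 116 and then at 264 and 210 (1.00, SE 0.16, adjusted p = 0.0170). Fabp5 rose 1.97-fold and Abcg1 2.01-fold, their libraries did not overlap, and they were the 2 genes called of 7 tested, where 0.89% of all 7082 genes were called. The Abcg1 call was lost with stricter gates (0.85, adjusted p = 0.0795) and without the first library at 30 °C (0.96, adjusted p = 0.208) or at 4 °C (0.86, adjusted p = 0.0695), with a fold about as large. Lpl had 1 to 5 UMIs per library in these cells, and Apoe was at 10.8 to 24.4. In the sterol synthesis list Hmgcs1 (1.84) and Idi1 (1.56) rose.

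B cells had the highest mean Apoe outside the macrophages. Apoe was at 1921 and 1906 CPM at 30 °C and at 1439 and 1285 at 4 °C, without overlap, from 28959 to 46389 UMIs per library. Its log2 fold change was -0.58 (SE 0.08) with an adjusted p of 0.0526, above the threshold, while DESeq2 gave 5.99e-08. Of 9 genes tested in B cells 0 were called by edgeR (2 at an unadjusted p under 0.05, Apoe and Abcg1, and 1 by DESeq2, Apoe), where 1.01% of all 11898 genes were called. Fabp4 was at 16.2 in the first 30 °C library and at 2.79 to 4.15 in the others, and 68.4% of its UMIs in that library were in 1 cell. Cd36 was at 25.1 and 21.4 at 30 °C and at 26.6 and 26.7 at 4 °C, without overlap (log2 fold change 0.11, SE 0.11, adjusted p = 0.663), and Abca1 (36.7 to 40.9) overlapped.

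The B cells were not alike in Apoe. In cells with a UMI of Fcer2a, which encodes CD23, a marker of follicular B cells, Apoe was at 971 and 992 at 30 °C and at 671 and 596 at 4 °C. In cells without one it was at 2315 and 2261 and then at 1924 and 1822. Cells with Fcer2a made up 32.0% and 30.6% of B cells at 30 °C and 43.4% and 49.1% at 4 °C. Apoe was thus lower at 4 °C in either set, and the set with less Apoe held a larger share of the cold libraries. This split was chosen after the data had been seen.

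**Figure D5:**
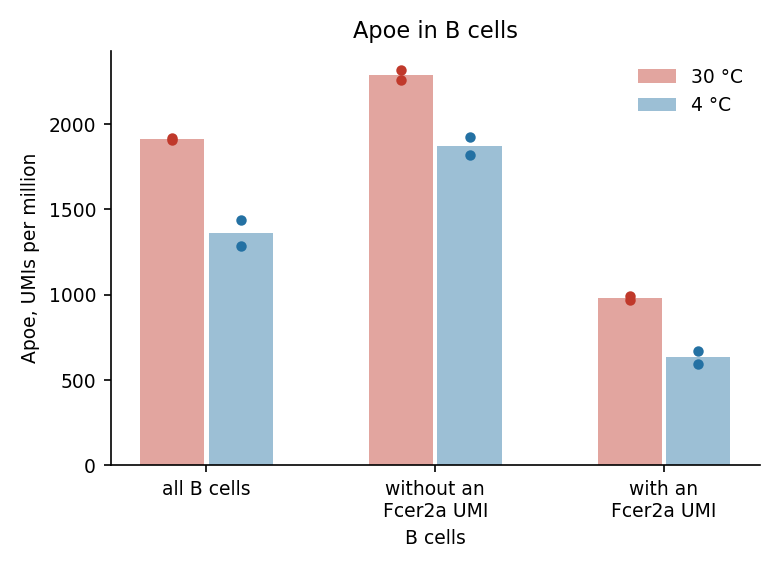
Apoe in CPM (y axis) in all B cells and in B cells without and with an Fcer2a UMI, with 1 point per library and bars at the mean of each temperature. In each set the 4 °C libraries lie below the 30 °C libraries.

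T cells held at most 50.8 CPM of any of the 10 genes other than Fabp5 (124 to 149.9). Of 9 genes tested 4 were called, 1 higher and 3 lower, where 10.4% of all 12123 genes were called. Abcg1 rose from 26.7 and 28.3 to 42.1 and 50.8 CPM (log2 fold change 0.69, SE 0.09, adjusted p = 0.00601). Plin2 fell from 16.3 and 18.9 to 11.1 and 13.1 (-0.61, SE 0.12, adjusted p = 0.0229), a call lost without the second 30 °C library (-0.50, adjusted p = 0.108). Fabp4 fell by 0.95 and Apoe by 0.74 on the log2 scale, from 5.75 to 7.63 and from 36.5 to 45.3 CPM at 30 °C. In the first 30 °C library 37.8% of the Apoe UMIs of T cells were in 1 cell, and Apoe was called also without the cell with the most UMIs in each library but not without that library (-0.57, adjusted p = 0.115). Fabp4 lost its call under 6 of 11 alternatives, among them stricter gates (-0.09) and leaving out the first 30 °C library (adjusted p = 0.178) or the second 4 °C library (0.0991). Lpl was at 0.481 and 0.769 and then at 4.74 and 1.49 (2.27, SE 0.60, adjusted p = 0.0505), and 71.8% of its UMIs in the first cold library were in 1 cell.

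Abcg1 was higher in both cold libraries than in both 30 °C libraries in Folr2-positive macrophages, dendritic cells, B cells, T cells and innate lymphoid cells, and the change was called in dendritic cells and T cells. How many of all genes separate so was not counted. In macrophages with neither kind of marker (14 to 44 cells per library), which were not tested on their own, Abcg1 was lower in both cold libraries, with 12 and 13 UMIs at 30 °C and 12 and 0 at 4 °C. In T cells 6 of 11 sterol synthesis genes rose, with Sqle (0.95), Idi1 (0.58) and Cyp51 (0.52) the largest, and in B cells 1 of 11, Idi1 (1.33).

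Innate lymphoid cells had 6 of the 10 genes above the filter and 0 were called, where 5.43% of all 8072 genes were called. At an unadjusted p under 0.05 there was 1, Abcg1, at 20.2 and 19.8 and then at 31.0 and 30.9, and DESeq2 called none. Fabp5 ranged from 68.4 to 119 and overlapped.

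Stromal cells numbered 26 to 39 per library and gave wide spreads. Lpl was at 852 and 3665 CPM at 30 °C and at 2466 and 1186 at 4 °C, and Fabp4 ran from 6.50 to 2987 within the 30 °C group. Apoe was at 579 and 855 and then at 1903 and 896 (log2 fold change 0.93, SE 0.37, adjusted p = 0.461). None of the 7 genes tested was called, where 0.285% of all 3860 genes were, with 1 at an unadjusted p under 0.05 (Apoe) and none by DESeq2.

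Genes with the most similar profile were ranked by Pearson's r of log2(CPM + 1) over 28 sums (7 cell groups in 4 libraries) among 12836 genes, as a description, since sums of 1 library share its depth. Lpl was closest to Lrp1 (r = 0.97), Itgb5 (0.96) and Dram1 (0.96). Plin2 was closest to Slc27a1 (0.96), Ctsb (0.95) and Slc8b1 (0.95), and Lipa to Atp6v1e1 (0.95), Abi1 (0.94) and Pilra (0.94). Apoe and Abca1 were among the 3 closest genes of each other (0.93), and Apoe was nearest to Blvrb (0.96). For Abcg1 the nearest was Bcl2a1b (0.92), for Cd36 Dnase2a (0.93), for Nr1h3 Fth1 (0.93), for Fabp4 2900097C17Rik (0.88) and for Fabp5 Gramd1b (0.87).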

How the data were processed

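Counts of UMIs per gene and cell were deposited by the authors as unnormalized 10x matrices, made with STAR and Cell Ranger on mm10 (version 3.0.0 per the file headers, 3.1.0 per the labels). The study's filters were applied (over 200 genes, under 5000, mitochondrial UMIs under 7.5%), and no doublet caller was run. Cells were gated by marker UMIs (macrophages by at least 4 of 8 markers), and those that passed more than 1 gate were left out. UMIs were summed per library and cell group and tested with edgeR 4.0.16 (TMM, filterByExpr, quasi-likelihood, Benjamini-Hochberg over all genes), with library as a term between macrophage groups. DESeq2 1.42.0 (R 4.3.3), other gates, filters and left-out libraries were alternatives. Shares were compared by exact permutation (scipy 1.17.1) after cells were thinned to 3000 UMIs. The fits were tested on simulated data. The 10 genes and the lists were chosen with earlier results of these data known. All 10 genes are named, and of each further list up to 3 rises and 3 falls by size (of the 5 droplet genes that fell, Dgat1 and Lipe were added after their values were seen). The splits by Fcer2a and by Ccr2 were chosen after the data had been seen. Some genes of the further lists are not reported here.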

Additional observations from a re-analysis of the deposited data

Results flagged for a closer look

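The cold response of Lpl differed between the macrophage groups by a test of the difference itself (log2 -2.01, adjusted p = 0.0245, edgeR), with the dependence on libraries and gates given above.

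For 3 further genes, both 4 °C libraries lay on 1 side of both 30 °C libraries in some groups and on the other side elsewhere. The 7 cell groups tested for cold were searched, and differences between groups were not tested. The share of all genes that separate in this way was not counted. For 2 libraries against 2, the smallest possible p of an exact permutation test (two-sided) is 0.333. Lipa was higher at 4 °C in Folr2-positive macrophages (log2 fold change 1.16), Itgax or Trem2 positive macrophages (0.25), B cells (0.21) and T cells (0.17), and lower in innate lymphoid cells (-0.49). Plin2 was lower in Folr2-positive macrophages (-1.81) and T cells (-0.61) and higher in B cells (0.23). Apoe was lower in Folr2-positive macrophages (-0.39), Itgax or Trem2 positive macrophages (-0.58), B cells (-0.58), T cells (-0.74) and innate lymphoid cells (-0.41), and higher in stromal cells (0.93). Outside the 7 groups, in macrophages with neither kind of marker, Apoe was also higher at 4 °C (5617 and 4940 CPM at 30 °C, 5932 and 7432 at 4 °C), and Abcg1, which was higher at 4 °C in 5 of the 7 groups, was lower (59.4 and 55.8, then 48.4 and 0). Of the log2 fold changes in this paragraph, those past the threshold were Lipa, Plin2 and Apoe in Folr2-positive macrophages and Plin2 and Apoe in T cells.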

How the results depend on the processing

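The number of the 10 genes called stayed within 1.5 times its value under every alternative in Folr2-positive macrophages (5 to 7 called) and between macrophage groups (8 or 9). Leaving out 1 library at a time gave 0 to 3 called in Itgax or Trem2 positive macrophages, 1 to 2 in stromal cells, 1 to 2 in dendritic cells, 0 to 4 in B cells, 2 to 4 in T cells and 0 to 2 for the interaction, and the cause was not tested. Stricter gates gave 1 in stromal cells, 1 in dendritic cells and 0 for the interaction. The interaction also gave 0 with the wider Folr2 gate, with at least 2 UMIs of the gating genes and without the cell with most UMIs, and 2 without a filter on low counts. Without that filter 1 gene was called in stromal cells and 2 in B cells. In B cells DESeq2 and a mitochondrial limit of 15% each gave 1, and without an upper limit on genes per cell 1 was called in innate lymphoid cells. Fabp4 in stromal cells ranged from -3.50 to 5.23 (log2) when 1 library was left out and reversed without the second 30 °C library, which held 709 of its UMIs against 1 in the other 30 °C library. Replicate numbers did not pair the libraries (correlations of deviations from -0.0836 to 0.215). A replicate block gave 1 called gene in B cells, Apoe (adjusted p = 0.00929), and changed no other count by over 1.5 times. Over all genes, counts called ranged over the alternatives from 584 (DESeq2) to 1704 in Folr2-positive macrophages (1448 as reported), 0 to 111 in Itgax or Trem2 positive macrophages (0), 2 to 127 in stromal cells (11), 8 to 339 in dendritic cells (63), 1 to 1551 in B cells (120), 441 to 2318 in T cells (1258), 92 to 788 in innate lymphoid cells (438), 746 to 1571 between macrophage groups (1290) and 0 to 81 for the interaction (5). With DESeq2, 53 genes were higher and 20 lower in dendritic cells against 37 and 26, and 139 higher and 207 lower in B cells against 32 and 88. The wider Folr2 gate leaves Itgax or Trem2 positive cells unchanged and was not run there. A group left with 1 library was assumed to vary like the other libraries. At 30 °C there were 27 Itgax or Trem2 positive and 56 stromal cells, and the effect of cell number on the counts called was not tested.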
